A study of Mus musculus with 12 samples.

Results

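The irides of 2 pigment mutant mouse strains were compared with each other: B6-albino mice, named B6-(Cg)TyrC-2J in the labels, with a mutation in Tyr, and B6-D2 congenic mice, named B6.D2(Tryp1-Gpnmb-)/SJ, with mutations in Tyrp1, which the labels spell Tryp1, and in Gpnmb. The series text writes the congenic alleles as Tryp1b and GpnmbR150X. The comparison was chosen by strain label alone and took 6 of the 12 arrays of the series, 3 from each strain. All animals were 60 days old, no treatment is named, and each array held RNA of the 4 irides of 2 animals, so that the spread between arrays is one between pools. Arrays of C57BL/6J mice and of B6-Lyst mice (B6-Lystbg-J, mutant for Lyst), 3 each, entered the fit only to estimate the spread and are given as levels. By its name the congenic strain carries DBA/2 ("D2") alleles at the mutated genes on a C57BL/6 (B6) background, and a congenic strain also keeps donor DNA around such genes. Its values therefore belong to the strain and not to Tyrp1 or Gpnmb alone. Of the 20 smooth muscle genes listed for the iris sphincter and dilator, 15 passed the filter on low values, and Acta2, smooth muscle actin, lay between 13.47 and 13.92 on the 6 arrays on the log2 scale. Other muscle of the eye also expresses these genes, no other tissue was measured, and lens genes were present too, so the values do not test the label "iris".

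Melanin is made in melanosomes, organelles related to lysosomes, in the pigment epithelium and the stromal melanocytes of the iris. Tyrosinase, encoded by Tyr, catalyses the first step of the synthesis, and without it no melanin forms. Tyrp1 encodes a related protein that acts later and stabilises the pathway, and Gpnmb encodes a transmembrane glycoprotein of melanosomes and of macrophages. The combination of Tyrp1 and Gpnmb mutations is known from DBA/2J mice, where the iris degenerates with age and pigment is dispersed, while an iris without tyrosinase holds no pigment to disperse. The comparison therefore sets an unpigmented iris against one with a melanosome defect, at an age at which both were analysed as adult tissue.

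The promoters of the mutated genes are shown because melanocyte genes are known to be driven by MITF, the master regulator of melanocytes, through the element CATGTG. The sequences are 300 bases around the start site from RefSeq (GRCm38.p6), read 5′ to 3′ on the strand of the gene, with matches to CATGTG on either strand in capitals. This element is in 14.2% of the 32851 promoters of the same length.
Tyr, chr7:87493463-87493762, minus strand: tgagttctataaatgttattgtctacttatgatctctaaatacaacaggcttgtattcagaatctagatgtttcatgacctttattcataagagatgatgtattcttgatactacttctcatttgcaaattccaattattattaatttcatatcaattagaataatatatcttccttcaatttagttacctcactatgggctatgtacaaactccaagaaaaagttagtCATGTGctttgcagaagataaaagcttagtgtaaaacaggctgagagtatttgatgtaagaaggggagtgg
Tyrp1, chr4:80833963-80834262, plus strand: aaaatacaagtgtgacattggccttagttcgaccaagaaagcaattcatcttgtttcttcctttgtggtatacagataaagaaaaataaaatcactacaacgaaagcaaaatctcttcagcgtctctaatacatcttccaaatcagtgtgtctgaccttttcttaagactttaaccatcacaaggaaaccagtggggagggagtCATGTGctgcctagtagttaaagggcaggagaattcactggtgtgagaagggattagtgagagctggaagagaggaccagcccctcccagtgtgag
Gpnmb, chr6:49036268-49036567, plus strand: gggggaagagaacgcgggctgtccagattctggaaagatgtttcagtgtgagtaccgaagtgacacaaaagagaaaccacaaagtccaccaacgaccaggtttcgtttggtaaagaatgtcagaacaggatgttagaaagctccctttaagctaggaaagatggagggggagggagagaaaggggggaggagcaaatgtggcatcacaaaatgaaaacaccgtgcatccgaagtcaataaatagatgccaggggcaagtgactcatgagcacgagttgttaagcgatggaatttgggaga
Tyr and Tyrp1 each hold 1 match, and the Gpnmb window holds none of these letters in that order.

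Few transcripts separated the strains. Of 27022 probe sets tested, 23 (0.0851%) were called at a Benjamini-Hochberg adjusted p under 0.05 with limma, 20 (0.074%) higher and 3 (0.0111%) lower in B6-albino irides. With each array scaled to its 75th percentile the split was 20 higher and 7 lower. Of the 23, 19 differed by at least 1 on the log2 scale, which is 2-fold. By annotation, 13 of them belong to 12 named genes, 9 have no gene name in the annotation and 1 matches several genes. Without adjustment 2294 (8.49%) had a p under 0.05, 5.6% of all tested being higher and 2.89% lower in B6-albino irides. The 3 arrays of one strain lay wholly above the 3 of the other for 3848 (14.2%), 8.45% with B6-albino above and 5.79% with it below. By comparison, the same fit called 498 (1.84%) for B6-Lyst against B6-albino irides and 252 (0.933%) for B6-Lyst against B6-D2 congenic irides, a difference in counts that was not tested. Each of the 6 arrays was left out in turn, and 10 calls, 5 of named genes and 5 without a name, were made in each of these 6 fits. Without the 3 arrays in which the corneal keratin Krt12 was high (B6-albino replicate 1, B6-D2 congenic replicate 2 and C57BL/6J replicate 1), 6 probe sets were called, all among the 23, and the differences of all 23 kept their sign.

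**Figure D1:**
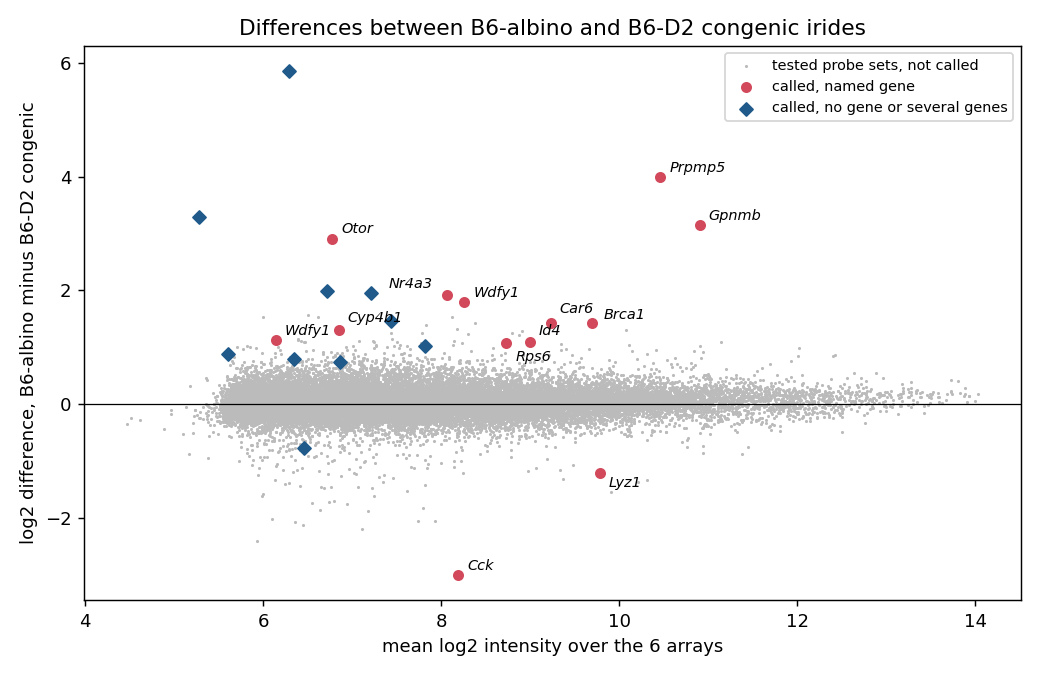
The log2 difference of each tested probe set, B6-albino minus B6-D2 congenic, is plotted against its mean log2 intensity over the 6 arrays. Circles are the 13 called probe sets of named genes and diamonds the 10 called ones with no gene or several genes; 20 of the 23 lie above 0.

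The arrays of both strains overlapped in their technical measures, with 1 exception. Correlations across probe sets, which are not independent, lay between 0.964 and 0.9854 within B6-albino, between 0.9653 and 0.9712 within B6-D2 congenic and between 0.9532 and 0.9864 across the strains, so that the ranges overlapped. Poly-A spike-in controls averaged 5.02 ± 0.07 (SD, n = 3) for B6-albino samples, with 5.21 ± 0.07 for B6-D2 congenic samples, a difference of -0.19 without overlap (exact permutation p = 0.1, two-sided, the smallest that 20 splits allow). Actin control probe sets at the 3′ end exceeded those at the 5′ end by 2.32 ± 0.29 and 2.39 ± 0.27. The C57BL/6J arrays, which enter below as levels, stood apart in the poly-A controls at 7.89 ± 0.46, and their replicate 3 had an actin difference of 4.30. The first principal component of the 6 arrays held 38% of their variance, with B6-albino replicate 3 and B6-D2 congenic replicate 3 at its ends and photoreceptor genes among its leading genes. The second, with 28.1%, set B6-D2 congenic replicate 2 apart, and its leading genes were Krt12 and other epithelial genes.

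Gpnmb transcripts were lower in the strain that carries the Gpnmb mutation. The level was 12.59, 12.71 and 12.13 on the B6-albino arrays and 9.40, 9.06 and 9.53 on the B6-D2 congenic arrays. No congenic array came near those of the other strains, whose means were 12.57 in C57BL/6J and 12.97 in B6-Lyst irides. The difference was 3.15 (SE 0.28, 8.85-fold, limma adjusted p = 0.00078), and the call held without any 1 of the 6 arrays (adjusted p between 0.00219 and 0.0106). For a second Gpnmb probe set the strains were 0.39 apart (SE 0.24, adjusted p = 0.701), so that the probe sets did not give the same size.

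The transcripts of Tyr and Tyrp1 were present at similar levels in both strains. Tyr was 12.26, 12.48 and 11.70 in B6-albino irides, which carry the Tyr mutation, and 11.81, 11.88 and 12.21 in B6-D2 congenic irides. The ranges overlapped, and the difference of 0.18 had a 95% interval from -0.46 to 0.82 (adjusted p = 0.899). Its other probe sets differed by 0.19 and 0.08. Tyrp1 was 13.59, 13.63 and 13.46 in B6-albino and 13.34, 13.47 and 13.56 in B6-D2 congenic irides, a difference of 0.10 (95% interval -0.25 to 0.46, adjusted p = 0.895) that was -0.05 after quantile normalization. The other Tyrp1 probe sets differed by 0.22 and 0.10. A mutation in a coding sequence need not change the level of its transcript, so these values check no label.

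No other gene of melanin synthesis and the melanosome was called. Of 25 genes on the list, 24 were tested and 1, Gpnmb, was called, against 0.091% of the 13190 genes represented by 1 probe set each (0.0758% higher and 0.0152% lower). The median difference was 0.08, beside -0.02 over all genes, with 14 members higher and 10 lower in B6-albino irides. Mitf was 12.20, 12.57 and 12.15 in B6-albino and 11.60, 11.40 and 11.66 in B6-D2 congenic irides. Its arrays did not overlap, but the difference of 0.75 (SE 0.15) was not called (adjusted p = 0.174, and between 0.148 and 0.598 when 1 array was left out). Atp7a, the copper transporter that loads tyrosinase with its cofactor, differed by 0.40 (SE 0.11, adjusted p = 0.39), and Mc1r, the melanocortin receptor of melanocytes, by 0.61 (SE 0.23, adjusted p = 0.517). Cited1, a transcriptional cofactor, was at -0.93 (SE 0.42, adjusted p = 0.575) and Rab27a, the GTPase that holds melanosomes at the cell edge, at -0.56 (SE 0.25, adjusted p = 0.581), though the mean over all Rab27a probe sets gave 0.14. With Gpnmb and Mitf, 6 of the 24 members had arrays that did not overlap, beside 12.4% of all genes, and 6 had an unadjusted p under 0.05, beside 6.43% of all genes. These shares were not tested.

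Structural and transport proteins of the melanosome gave wide intervals around 0. Pmel, which forms the fibrils on which melanin is laid down, differed by 0.22 (95% interval -0.22 to 0.65), and Dct, the enzyme next to Tyrp1 in the pathway, by 0.14 (-0.23 to 0.51), a value of -0.00 after quantile normalization. Mlana, a melanosome protein, differed by -0.49 (-1.18 to 0.20), and the melanosome transporters Oca2 and Slc45a2 by 0.52 (-0.08 to 1.12) and 0.27 (-0.41 to 0.94). Intervals that reach beyond 1 leave room for a 2-fold difference of Oca2 in B6-albino irides and of Mlana in the opposite direction.

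**Figure D2:**
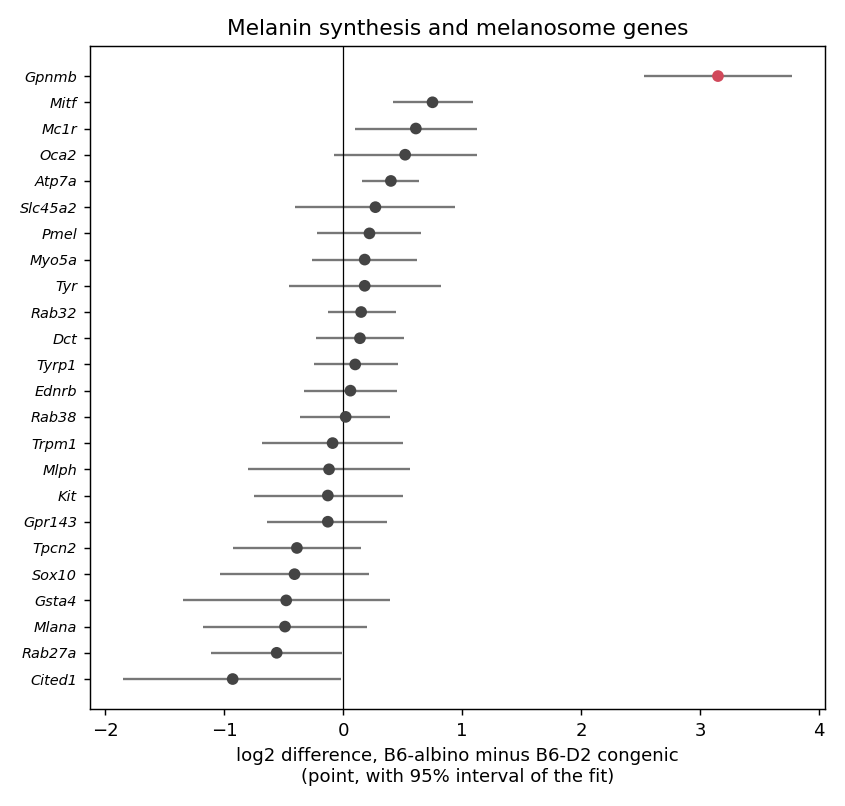
The log2 difference of each of the 24 tested melanin and melanosome genes, B6-albino minus B6-D2 congenic, is shown with its 95% interval from the limma fit. Gpnmb, at 3.15, is the member that was called; the others lie between -0.93 and 0.75.

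Beside Gpnmb, 9 named genes were higher in B6-albino irides by their representative probe set. The largest difference was that of Prpmp5, a gene of the salivary proline-rich protein family. It was 12.34, 12.69 and 12.33 on the B6-albino arrays and 8.95, 7.82 and 8.64 on the B6-D2 congenic arrays, 3.99 apart (SE 0.29, 15.9-fold, adjusted p = 0.000126). The 4 strains lay in separate ranges for this gene, with means of 10.16 in C57BL/6J and 7.05 in B6-Lyst irides on either side of the congenic mean of 8.47. A called probe set that matches several genes, Prpmp5 among them, differed by 0.79 (adjusted p = 0.0486) and was called in 1 of the 6 fits that left out 1 array (up to 0.245). Car6, the secreted carbonic anhydrase of saliva and tears, was 9.81, 10.02 and 9.98 in B6-albino and 8.81, 8.26 and 8.49 in B6-D2 congenic irides, 1.42 apart (SE 0.15, adjusted p = 0.00352). Its B6-albino arrays lay above all 9 other arrays of the series, and the other strains' means were 8.57 and 8.75. Prpmp5 and Car6 kept their calls whichever array was left out; without the 3 arrays with high Krt12 the adjusted p was 0.00627 for Prpmp5 and 0.0988 for Car6.

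Wdfy1, which encodes an endosomal protein with a lipid-binding FYVE domain, was 9.26, 9.21 and 9.0 in B6-albino and 7.43, 7.03 and 7.63 in B6-D2 congenic irides, 1.79 apart (SE 0.16, 3.46-fold, adjusted p = 0.00078). Both C57BL/6J (7.71) and B6-Lyst irides (7.48) lay with the congenic strain. A second Wdfy1 probe set was also called (1.12, adjusted p = 0.0179) but in none of the 6 fits that left out 1 array (between 0.067 and 0.0983). Its means were 5.60 in C57BL/6J, 5.72 in B6-Lyst and 5.58 in congenic irides, around the filter value of 5.653. The bound against that value is 2.07-fold. It passed the filter mainly through the B6-albino arrays (mean 6.70), so its call is no separate support. Another Wdfy1 probe set was at -0.05 (adjusted p = 0.916). A further Wdfy1 probe set, below the filter and not tested, averaged 6.78 in B6-albino and 5.0 in congenic irides. The last one, also not tested, averaged 4.63 in B6-albino and 4.45 in congenic irides. The probe sets of this gene thus did not all give the same size. Nr4a3, an orphan nuclear receptor of the early response class, was 8.73, 9.47 and 8.86 in B6-albino and 7.25, 6.96 and 7.10 in B6-D2 congenic irides. The B6-albino arrays were above and the congenic arrays below those of every other strain. The difference was 1.92 (SE 0.22, adjusted p = 0.00568); it was called in 5 of the 6 fits that left out 1 array and had an adjusted p of 0.0505 without B6-D2 congenic replicate 2. A second tested Nr4a3 probe set went the other way, at -0.23 (SE 0.18, adjusted p = 0.759).

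The other 5 genes higher in B6-albino irides were each called in 1 of the 6 fits that left out 1 array. Otor, which encodes the secreted protein otoraplin, known from the cochlea, was 8.54, 8.99 and 7.16 in B6-albino and 5.42, 5.32 and 5.24 in B6-D2 congenic irides. Since the congenic mean of 5.32 lay below 5.653, the lowest mean that was tested, the rise was at least 5.96-fold against that value (adjusted p = 0.0179). It was called without B6-albino replicate 3 (adjusted p = 0.00114) and lost its call in the other 5 such fits (between 0.0826 and 0.135). Brca1, a DNA repair gene, was 10.40, 10.61 and 10.23 against 9.07, 8.65 and 9.24 (1.43, SE 0.20, adjusted p = 0.0182). Its call held without B6-D2 congenic replicate 3 (0.0429) and ended without any of the other 5 arrays (between 0.0603 and 0.126). Another tested Brca1 probe set was at 1.01 (SE 0.23, adjusted p = 0.276). Of those below the filter and not tested, 1 averaged 5.17 in B6-albino and 4.17 in congenic irides, and 1 averaged 5.54 and 5.55. Cyp4b1, a cytochrome P450, was 7.37, 7.71 and 7.42 against 6.42, 5.90 and 6.27 (1.31, SE 0.18, adjusted p = 0.0179). It stayed called without B6-D2 congenic replicate 1 (0.0413), and not without any other array (between 0.0725 and 0.114). For Brca1 and Cyp4b1 the B6-albino arrays lay above all 9 others.

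Id4, an inhibitor of helix-loop-helix transcription factors, was 9.38, 9.64 and 9.61 in B6-albino and 8.77, 8.26 and 8.33 in B6-D2 congenic irides (1.09, SE 0.15, adjusted p = 0.0179). Its other probe sets differed the same way, by 1.23 (adjusted p = 0.0743) and 0.50 (adjusted p = 0.539). The call held without B6-D2 congenic replicate 1 (0.00738) and ended without any of the other 5 arrays (between 0.0569 and 0.114). Rps6, a protein of the small ribosomal subunit, was 9.14, 9.41 and 9.25 in B6-albino and 7.92, 8.24 and 8.43 in B6-D2 congenic irides (1.07, SE 0.15, adjusted p = 0.0179). Here the congenic arrays lay below all 9 others. A second Rps6 probe set, below the filter and not tested, averaged 5.1 in B6-albino and 4.85 in congenic irides. The call of Rps6 held without B6-D2 congenic replicate 3 (0.0242) and ended without any of the other 5 arrays (between 0.0654 and 0.114). With marker means of lens, retina and cornea added to the model, the calls of Prpmp5 (0.000216), Gpnmb (0.0247), Wdfy1 (0.00793) and Car6 (0.0284) held, and those of Nr4a3 (0.0537), Otor (0.0537), Brca1 (0.0767), Cyp4b1 (0.0988), Id4 (0.166) and Rps6 (0.0801) did not. The genes that come next in order of p among those at least 1 higher, Cpa3, a mast cell protease (1.56, SE 0.27, adjusted p = 0.0882), and Slc24a4, an ion exchanger (1.15, SE 0.25, adjusted p = 0.246), were not called.

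**Figure D3:**
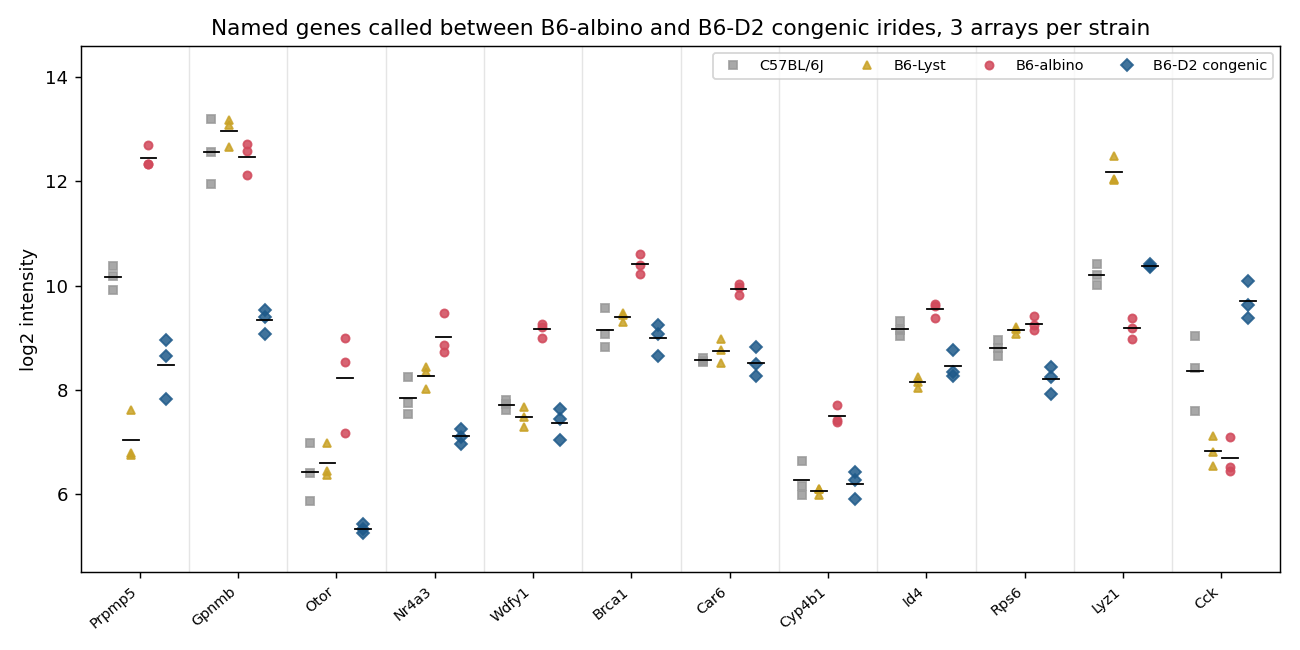
Log2 intensity of the 12 named genes called between the strains on all 12 arrays, 1 point per array and a bar at each strain mean. Prpmp5 to Rps6 are higher in B6-albino irides and Lyz1 and Cck are lower. The B6-D2 congenic arrays lie outside all 9 others in Gpnmb, Cck, Rps6, Nr4a3 and Otor. The B6-albino arrays do so in Prpmp5, Wdfy1, Car6, Cyp4b1, Nr4a3, Otor, Brca1, Id4 and Lyz1.

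Cck and Lyz1 were lower in B6-albino irides. Cck, which encodes the peptide hormone and neuropeptide cholecystokinin, was 6.52, 7.10 and 6.44 on the B6-albino arrays and 9.38, 9.62 and 10.08 on the B6-D2 congenic arrays. All congenic arrays were above all others of the series, C57BL/6J irides averaged 8.35 ± 0.73 and B6-Lyst irides 6.81 ± 0.29, the latter within the spread of the B6-albino level of 6.69 ± 0.36. B6-albino and congenic irides differed by -3.01 (SE 0.33, 8.04-fold, adjusted p = 0.00352), and the call held without any 1 array (adjusted p between 0.0094 and 0.0334). With the tissue marker covariates the adjusted p was 0.0686, and without the 3 arrays with high Krt12 it was 0.0557. Lyz1, a lysozyme gene, was 9.38, 9.18 and 8.98 against 10.35, 10.42 and 10.38 (-1.20, SE 0.16, adjusted p = 0.0153). It was called without B6-albino replicate 1 (0.0404) and not without any of the other 5 arrays (between 0.0654 and 0.0934), and the adjusted p was 0.14 with the tissue covariates. Lyz1 has a near-identical neighbour, the macrophage gene Lyz2, which differed by -1.12 (SE 0.25, adjusted p = 0.251). The called probe set of Lyz1 is of a type that can bind related transcripts. Another Lyz1 probe set of that type was at -1.01 (SE 0.16, adjusted p = 0.0676) and was not called. A Lyz1 probe set of a different type, below the filter and not tested, averaged 4.65 in B6-albino and 4.75 in congenic irides. The difference was thus seen only in Lyz1 probe sets that can bind related transcripts. The 2 genes are therefore not separated with certainty, and whether the call belongs to Lyz1 was not tested.

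The promoters of Nr4a3 and Cck are shown because both genes were called, in opposite directions, and both are known targets of cyclic AMP signalling. Capitals mark TGACG, the core of the cyclic AMP response element, on either strand; it is in 20.8% of the 32851 promoters.
Nr4a3, chr4:48045055-48045354, plus strand: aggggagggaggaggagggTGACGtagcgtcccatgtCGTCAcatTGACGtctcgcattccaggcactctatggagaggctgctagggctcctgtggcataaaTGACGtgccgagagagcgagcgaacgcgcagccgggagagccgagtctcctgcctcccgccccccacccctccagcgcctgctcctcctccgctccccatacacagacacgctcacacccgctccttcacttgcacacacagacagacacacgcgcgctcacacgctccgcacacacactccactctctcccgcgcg
Cck, chr9:121495645-121495944, minus strand: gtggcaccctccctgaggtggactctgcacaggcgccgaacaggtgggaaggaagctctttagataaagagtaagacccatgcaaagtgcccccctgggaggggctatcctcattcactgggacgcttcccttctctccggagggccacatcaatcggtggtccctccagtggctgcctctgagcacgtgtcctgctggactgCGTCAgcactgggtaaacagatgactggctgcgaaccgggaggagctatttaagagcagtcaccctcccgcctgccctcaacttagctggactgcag
The Nr4a3 window holds 4 matches and that of Cck 1. A match is a description of the letters and not evidence that the element was in use.

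No other named gene was called lower. The next 5 in order of p among genes at least 1 lower in B6-albino irides, with arrays that did not overlap, were Mpzl2, an epithelial adhesion protein (-1.82, SE 0.31, adjusted p = 0.0743), Elobl (-1.55, SE 0.28, adjusted p = 0.0946), Cd274, the gene of the immune checkpoint ligand PD-L1 (-1.0, SE 0.20, adjusted p = 0.163), Lyz2 (given above), and F3, which encodes tissue factor (-1.03, SE 0.25, adjusted p = 0.305). Elobl had an adjusted p of 0.00768 without B6-albino replicate 2. Scin (-2.02, adjusted p = 0.462), Psca (-1.46, adjusted p = 0.482) and Ptgr1 (-1.34, adjusted p = 0.407) were high on B6-D2 congenic replicate 2, at 9.40, 9.51 and 12.10, the array with the most Krt12. Their other congenic arrays lay at 6.15 and 5.79 for Scin, 7.23 and 6.64 for Psca, and 10.37 and 10.47 for Ptgr1. Mpzl2 and F3 were also highest among the congenic arrays on replicate 2. Mpzl2 was 9.57 there and 8.22 and 8.31 on the others, and F3 was 8.21 there and 7.58 and 7.14 on the others. Without the 3 arrays with high Krt12 the differences of Mpzl2 and F3 were -1.38 and -0.76.

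The most extreme differences of the comparison were in probe sets without a gene name. Probe set 1436240_at was 9.54, 9.20 and 8.92 in B6-albino irides and 3.20, 3.55 and 3.35 in B6-D2 congenic irides, while C57BL/6J averaged 9.20 ± 0.36 and B6-Lyst 8.50 ± 0.34. The difference was 5.85 (SE 0.23, adjusted p = 3.63e-07), at least 11.9-fold when the congenic mean is replaced by 5.653. Probe set 1440624_at was 6.97, 6.93 and 6.86 against 3.70, 3.63 and 3.56, a difference of 3.29 (SE 0.15, adjusted p = 1.67e-06, at least 2.41-fold). In both, every array of the 3 other strains lay above 6 and every congenic array below 4. Probe sets 1443056_at (1.96, SE 0.14, adjusted p = 8.2e-05), 1444622_at (1.98, SE 0.22, adjusted p = 0.00352) and 1441498_at (1.47, SE 0.16, adjusted p = 0.00352) followed. Leaving out any 1 array ended none of these 5 calls.

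Of the 9 unnamed probe sets, all 9 had the 3 congenic arrays outside the range of all 9 others, and 8 were lower in the congenic strain. Over all tested probe sets the congenic arrays stood outside all others in 1.11%, above in 0.592% and below in 0.522%. Among the 13 called probe sets of named genes it was the B6-albino arrays that stood apart in 10, against 3.4% of all tested probe sets (1.87% above and 1.53% below), and the congenic arrays in 5. These shares describe probe sets already chosen for their difference between the strains. The 4 weaker unnamed calls were 1443075_at (1.01), 1443053_at (0.88), 1458969_at (0.74) and 1429676_at, the one that was higher in congenic irides (-0.78). Each lost its call in at least 3 of the 6 fits that left out 1 array, with adjusted p up to 0.0928, 0.0736, 0.201 and 0.117 in that order. The files hold 1 value per probe set, so a different transcript level and a different binding of the probes to a variant sequence cannot be told apart. Where these probe sets lie in the genome was not known here, so it was not shown that they meet a DBA/2 allele.

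**Figure D4:**
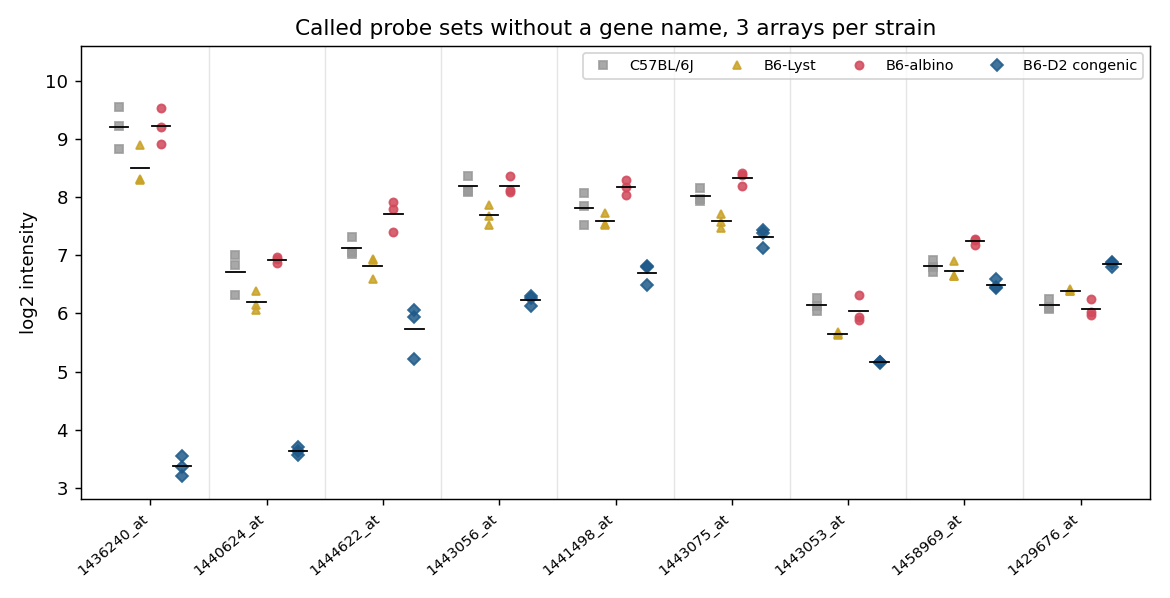
Log2 intensity on all 12 arrays of the 9 called probe sets without a gene name, 1 point per array and a bar at each strain mean. The B6-D2 congenic arrays lie below all others in 8 and above all others in 1429676_at; in 1436240_at they are between 3.20 and 3.55.

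Genes near the mutated loci were examined, 20 tested genes on either side of each in RefSeq order. Near Tyrp1, 1 of 40 genes was called, beside 0.091% of all genes: Rps6, 19 tested genes away from Tyrp1 and lower in congenic irides. Ptprd, a receptor phosphatase, was next there (0.70, SE 0.13, adjusted p = 0.105). For Rps6, too, a different transcript level and a different binding of its probes to a donor allele cannot be told apart. Near Gpnmb 0 of 40 were called, with Zfp862-ps at -0.63 (SE 0.15, adjusted p = 0.282) and the splicing factor Tra2a at 0.52 (SE 0.13, adjusted p = 0.347). Near Tyr 0 of 40 were called, with 4632427E13Rik at 0.42 (SE 0.11, adjusted p = 0.39) and Gm2115 at 0.62 (SE 0.19, adjusted p = 0.424). An unadjusted p under 0.05 was found for 12.5% of the genes near Tyr, 15% near Tyrp1 and 12.5% near Gpnmb, beside 6.43% of all genes. Arrays that did not overlap were found for 20%, 22.5% and 25%, beside 12.4%. These shares were not tested. Of the other called genes, Nr4a3, Cyp4b1 and Car6 lie on the chromosome of Tyrp1, 75, 117 and 489 tested genes from it, and Prpmp5 on that of Gpnmb, 427 away.

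Several macrophage genes were lower in B6-albino irides without passing the test. Of 23 markers on the list 20 were tested, 6 higher and 14 lower, with a median of -0.20 beside -0.02 over all genes. Of the 20, 0 were called, beside 0.091% of all genes. Lyz2 was 8.80, 8.67 and 8.05 in B6-albino and 9.45, 9.74 and 9.69 in B6-D2 congenic irides. Tyrobp, the adaptor of myeloid receptors, was at -0.71 (SE 0.15, adjusted p = 0.218) and Mpeg1, a pore-forming protein of macrophages, at -0.67 (SE 0.15, adjusted p = 0.243). The lysosomal proteins Cd68 and Ctss were at -1.04 (SE 0.34, adjusted p = 0.438) and -0.50 (SE 0.15, adjusted p = 0.407). The arrays of these 5 genes did not overlap between the strains. They also did not overlap in the other direction for the receptors Mrc1 (0.54, SE 0.22, adjusted p = 0.536) and Fcgr2b (0.11, adjusted p = 0.809; -0.05 as a mean over its probe sets), which makes 7 of 20 members, beside 12.4% of all genes. Csf1r, the growth factor receptor that defines the lineage, was at 0.12, and at -0.05 without the 3 arrays with high Krt12. The mean of the list was 8.38, 8.26 and 7.84 on the B6-albino arrays and 8.39, 8.44 and 8.40 on the congenic arrays (exact permutation p = 0.1, two-sided, the smallest possible here). In whole tissue, fewer cells of a type and less RNA per cell cannot be told apart. The medians in the fits that left out 1 array lay between -0.30 and -0.09.

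Interferon-stimulated genes leaned the same way. Of 20 tested, 19 were lower in B6-albino irides, while 45.8% of all genes were higher. Of the 20, 0 were called, beside 0.091% of all genes. The median of -0.36 lay between -0.46 and -0.21 when 1 array was left out. Arrays did not overlap for 6 members, all lower, beside 12.4% of all genes. These shares were not tested. Gbp2, an interferon-induced GTPase, was at -0.60 (SE 0.27, adjusted p = 0.581), Bst2, which tethers enveloped virus particles, at -0.67 (SE 0.35, adjusted p = 0.642) and Ifit3 at -0.51 (SE 0.26, adjusted p = 0.64). The array means of the list overlapped, at 8.08, 8.29 and 7.82 in B6-albino and 8.24, 8.38 and 8.54 in congenic irides. Lists of MHC class II presentation (median -0.02), lymphocytes (-0.05) and complement and inflammatory mediators (-0.12) had 0 called members, beside the same 0.091% of all genes.

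Immediate early genes, the transcription factors that respond first to a stimulus, held 1 called member, Nr4a3, beside 0.091% of all genes. Of 20 tested, 4 were higher and 16 lower in B6-albino irides, with a median of -0.26, and the array means of the list overlapped (exact permutation p = 0.3). Junb was at -0.75 (SE 0.21, adjusted p = 0.392). Its congenic arrays, in order of replicate, were 6.33, 7.19 and 6.41, and the difference was -0.42 without the 3 arrays with high Krt12. Jun was at -0.48 (SE 0.14, adjusted p = 0.406) and Egr1 at -0.40 (SE 0.14, adjusted p = 0.47). Arrays did not overlap for 7 lower members, Junb, Jun and Egr1 included, and for 1 higher, 8 of 20 beside 12.4% of all genes. In the fits that left out 1 array the median lay between -0.39 and -0.21. Among stress genes, the endoplasmic reticulum proteins Sdf2l1 (-0.62, SE 0.12, adjusted p = 0.146) and Calr (-0.39, SE 0.12, adjusted p = 0.42) and the pseudokinase Trib3 (-0.42, SE 0.09, adjusted p = 0.233) were lower without a call, in a list of 20 with a median of -0.06. In the clock list Per3 was at 0.50 (SE 0.15, adjusted p = 0.407) and Clock at 0.35 (SE 0.13, adjusted p = 0.517), with a median of 0.09 over 17 genes.

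Markers of neighbouring eye tissues varied widely between arrays of the same strain. Krt12, the corneal keratin, was 10.45, 6.75 and 7.12 on the B6-albino arrays and 6.15, 13.81 and 6.84 on the B6-D2 congenic arrays. The cornea and conjunctiva list had a median of -0.82 over 19 tested members, which lay between -1.26 and 0.18 when 1 array was left out and was 0.15 without the 3 arrays with high Krt12. Its mean was 10.76 on B6-D2 congenic replicate 2 against 7.31 to 8.32 on the other arrays of the 2 strains. On C57BL/6J replicate 1 it was 8.92. Lens genes were present on all 6 arrays, Cryaa, which encodes a crystallin, between 12.95 and 14.22. Of the lens list 18 of 19 members were higher, beside 45.8% of all genes, and 0 were called, beside 0.091%. Its median was 0.72, and its mean of 12.56 on B6-albino replicate 3 was the highest of the 6 arrays. Mip, a water channel of lens fibres, was 11.40 there and between 7.46 and 7.60 on the others. Without 1 array the lens median lay between 0.19 and 1.04.

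Photoreceptor genes gave the same picture. The 19 tested members were all higher in B6-albino irides, beside 45.8% of all genes, with a median of 0.55. Of these members 0 were called, beside 0.091% of all genes. The list's mean, however, was 9.19, 7.30 and 9.60 on the B6-albino arrays and 9.43, 7.89 and 7.14 on the congenic arrays. Gnat1, the transducin of rods, was 11.67, 9.23 and 11.88 against 11.68, 10.06 and 8.71. The median lay between 0.06 and 1.24 when 1 array was left out and was 0.04 without the 3 arrays with high Krt12. What part these tissue levels have in the calls above was not tested beyond the covariates, with which 11 probe sets were called, 10 of them among the 23.

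**Figure D5:**
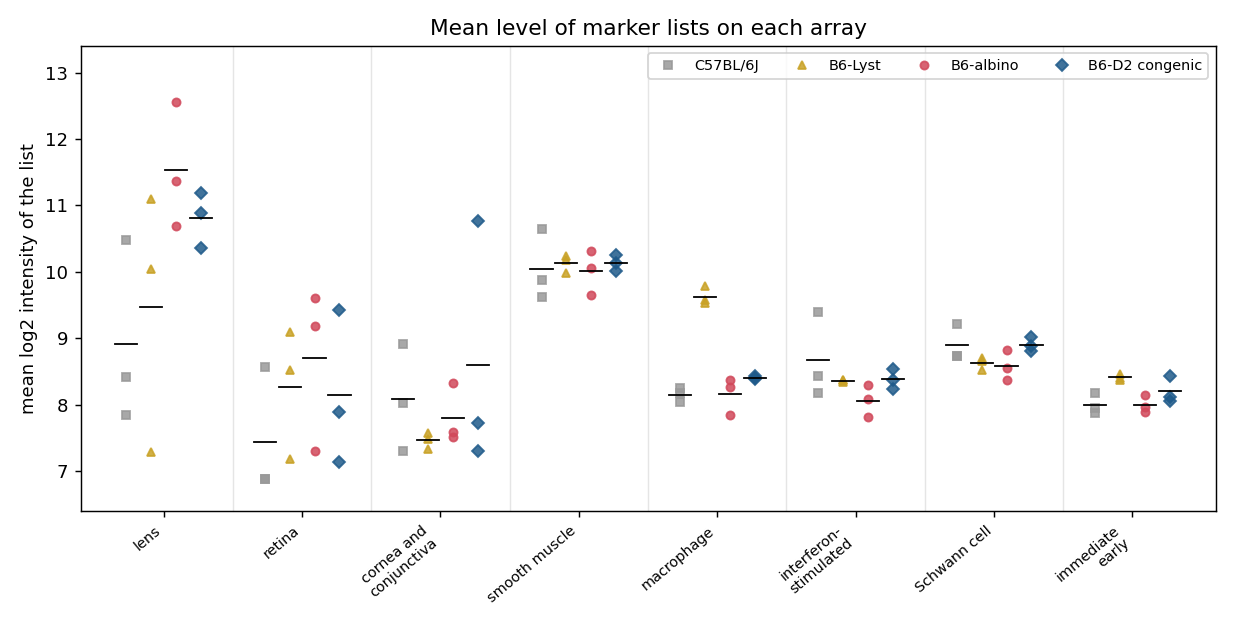
Mean log2 intensity of 8 marker lists on each of the 12 arrays, 1 point per array and a bar at each strain mean. Retina means spread over more than 1 log2 unit within every strain, and lens and cornea means within some, with B6-D2 congenic replicate 2 at 10.76 in the cornea list, while the smooth muscle means of the B6-albino and congenic arrays lie between 9.65 and 10.31.

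Glands whose secretions reach the eye were represented by a lacrimal and salivary gland list, drawn up with the calls of Prpmp5, Car6 and Lyz1 against other strains already known. Of 17 genes 8 were tested, and those 3 were called, Prpmp5 and Car6 higher and Lyz1 lower in B6-albino irides, beside 0.091% of all genes. Since the list was drawn up with those calls known, its count is no evidence about the list. The others were not called; among them were the water channel Aqp5 (-1.13, adjusted p = 0.857, at 12.10 on B6-D2 congenic replicate 2 and between 6.27 and 8.09 on the others, and 0.72 without that array) and Bhlha15, a transcription factor of secretory cells (-0.21, adjusted p = 0.684). The list's median was -0.06.

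Lists of smooth muscle, stroma, vascular endothelium, Schwann cells and the ciliary body held 0 called members, beside 0.091% of all genes. The 15 smooth muscle genes tested had a median of -0.16, the 26 genes of stroma and extracellular matrix 0.10, the 17 of vascular endothelium -0.02, the 12 of Schwann cells and myelin -0.26 and the 16 of the ciliary body 0.16. In the stroma, with 14 members higher and 12 lower, Ogn, a small proteoglycan, was at 0.52 (SE 0.17, adjusted p = 0.43). Col5a1, a collagen gene of the same list, was at -0.35 (SE 0.14, adjusted p = 0.538). Among Schwann cell genes Erbb3, a neuregulin receptor, was at -0.59 (SE 0.21, adjusted p = 0.477). Erbb3 was 8.98 on B6-D2 congenic replicate 2 and 8.26 and 8.17 on the other congenic arrays. Its difference was -0.26 without the 3 arrays with high Krt12. The skeletal muscle list was split, with 6 members higher and 5 lower in B6-albino irides. Ttn, which encodes titin, was at 0.98 (SE 0.21, adjusted p = 0.223) and Myom2 at -0.89 (SE 0.28, adjusted p = 0.429). Genes of the anterior segment had a median of 0.04 over 19, with 13 higher and 6 lower. Tgfb2, a growth factor of the anterior chamber, was at 0.44 (SE 0.13, adjusted p = 0.407) and Cyp1b1 at -0.75 (SE 0.35, adjusted p = 0.592). Cdkn1a, a cell cycle inhibitor, was at -0.88 (SE 0.23, adjusted p = 0.364) in a cell cycle list with a median of -0.11. Cdkn1a was 8.40 on B6-D2 congenic replicate 2 and 7.38 and 7.34 on the other congenic arrays. Its difference was -0.52 without the 3 arrays with high Krt12.

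The following lists, of lysosomes, metabolism and other genes, held 0 called members, beside 0.091% of all genes. The medians were -0.07 for lysosome-related organelle biogenesis (19 genes), -0.03 for lysosomal proteins (33), -0.12 for antioxidant genes (25), 0.07 for oxidative phosphorylation (25), -0.03 for sterol and fatty acid synthesis (19), 0.21 for the pigment epithelium and visual cycle (14), 0.04 for skeletal muscle (11), -0.13 for the single tested erythrocyte gene and 0.09 for 5 sex-linked genes. Leaving out 1 array moved the median between -0.10 and 0.30 for the visual cycle and between -0.12 and 0.24 for oxidative phosphorylation. It moved between -0.15 and 0.08 for lysosomal proteins and between -0.30 and -0.07 for antioxidant genes. Of the 25 antioxidant genes 20 were lower in B6-albino irides, while 45.8% of all genes were higher. Acp5, an acid phosphatase of macrophages and osteoclasts, was at -0.64 (SE 0.19, adjusted p = 0.414) and Gsr, glutathione reductase, at -0.54 (SE 0.19, adjusted p = 0.465). Over all genes the median absolute difference was 0.13 and the median SE 0.16. In all, 26 of the 29 lists held no called member, beside 0.091% of all genes called. At that share most lists of these sizes would hold none, so these counts do not show that a tissue was unchanged. The array means of 1 list, that of macrophages, did not overlap between the strains.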

How the data were processed

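Pooled mouse irides gave total RNA that was hybridised to Affymetrix arrays, per the labels. For each array the authors deposited log2 values of its probe sets; the scale was read from the values, while background correction, normalization and summary were not given in the sources used here. The values were used as deposited, and no depth exists for arrays: their number limits the precision. Of 45037 probe sets other than controls, 34945 have 1 gene symbol in the platform annotation, 932 several and 9160 none; 34741 matched RefSeq gene IDs (GRCm38.p6), through which symbols were updated. Tested were the 27022 probe sets whose 12-array mean reached the 40th percentile (5.653), and the tested probe set with the highest mean represents a gene (13190 genes).

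All 12 arrays entered 1 limma model (version 3.58.1, R 4.3.3) of strain means, two-sided, with a prior that followed intensity (3.57 prior degrees of freedom), adjusted by Benjamini-Hochberg over all tested probe sets. On data simulated for this comparison, 70% of log2 changes of 1 and 93% of changes of 2 were recovered (100 each), with 5 false calls. The simulated noise was normal and independent between probe sets, without tissue levels shared across genes. These figures therefore need not hold for the real arrays. The labels call the arrays biological replicates. Where a strain mean lay below 5.653, the fold is a bound against that value.

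The members and gene lists were chosen with earlier results of these data known. Named are the mutated genes, the 12 largest called differences in each direction (filled with genes of smallest p), the list members of smallest p, and the 2 genes of smallest p near each mutated locus; Krt12, Cryaa, Mip, Gnat1, Acta2, Mrc1, Csf1r, Fcgr2b, Aqp5 and the unnamed probe sets were chosen after their values were seen, and list members not named are covered by counts. Other filters, scalings, priors, covariates, a replicate block and fits without single arrays were tried.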

Additional observations from a re-analysis of the deposited data

How the results depend on the processing

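The number of arrays limits what these values can resolve, and whether a call held depended on single arrays: 10 to 16 probe sets were called when 1 of the 6 arrays was left out, 9 to 15 of them higher and 1 to 3 lower in B6-albino irides. With the actin control difference as a covariate 35 were called (8 lower), with only the 6 arrays of both strains 8 (7 higher, 1 lower), with the lens, retina and cornea lists as covariates 11 (10 higher, 1 lower), and without the 3 arrays with high Krt12 6 (6 higher, 0 lower, by limma; 1556 had an unadjusted p under 0.05). Scaling to the 75th percentile gave 7 lower. The cause of these shifts was not tested, other than that 6 arrays or 9 leave fewer degrees of freedom. Other filters, no trend, a robust prior and quantile normalization kept the counts within 1.5 times. Of the 155 genes that the naming rule gives, 23 changed sign under at least 1 alternative, 0 of them called. Among those printed, these were Tyrp1 (-0.05) and Dct (-0.00) after quantile normalization and Rab27a (0.14) as a mean over its probe sets. Aqp5, Csf1r and Fcgr2b, named outside the rule, turned as well. Aqp5 was at 0.10 with the tissue covariates, 0.69 without high Krt12 and between -2.20 and 0.72 without 1 array. Csf1r was at -0.05 without high Krt12 and between -0.04 and 0.24 without 1 array, and Fcgr2b at -0.05 as a mean over its probe sets. The medians of 15 of the 29 lists, cornea and lens among them, changed sign without 1 array, without high Krt12 or with the tissue covariates.

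Samples of the strains share replicate numbers in the labels, and a fit with the replicate number as a block called 16 probe sets (13 higher, 3 lower), 14 of them among the 23. Deviations of same-numbered samples correlated at 0.002, -0.1 and -0.43, and those of differently numbered samples between -0.426 and 0.533. Tissue levels that vary between arrays also enter these deviations. These few values show no pairing by number and cannot exclude one.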
